A study of Gallus gallus with 4 samples.

Results

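Genes of cholesterol synthesis, uptake and handling were followed in granulosa cells, the somatic layer around the oocyte in an ovarian follicle, of the chicken (Gallus gallus). The members were 31 named genes, looked up by gene name in tables of 19309 rows, of which 27 were found. Cells build cholesterol from acetyl-CoA by way of mevalonate, squalene and lanosterol, take it up from lipoproteins, and release it from lysosomes before it is used, stored as ester or exported. When sterol in the endoplasmic reticulum is low, the escort protein SCAP carries the transcription factor encoded by SREBF2 to the Golgi for activation, and INSIG proteins hold this complex back when sterol is plentiful. Granulosa cells of the largest follicles of the hen are known for making progesterone, which is derived from cholesterol.

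RNA was sequenced from poly-A selected transcripts of cells close to (proximal) or far from (distal) the germinal disc, the spot that holds the oocyte nucleus, taken from follicles of F5 and of F1 rank. F1 is the follicle closest to ovulation, and the birds were 10 to 15 months old. Each of the 4 groups, F5 proximal, F5 distal, F1 proximal and F1 distal, had 1 library, and the labels describe the cells as natural and name no treatment. How many birds or follicles went into a library is not stated. Values are FPKM, that is, fragments scaled to gene length and library total, computed by the authors. Library totals recovered from the FPKM values lay between 13948790 reads (F1 distal) and 18020270 reads (F1 proximal). ZP3, an egg coat protein made by granulosa cells of birds, took 1.98% and 2.04% of the reads in F5 and 11.4% and 15.4% in F1. All 7 granulosa cell markers looked up averaged at least 1 FPKM, and FOXL2, a granulosa cell transcription factor, stood between 861 and 1594 FPKM. Others of these markers were lower in F1: FSHR at 47.6, 43.3, 28.98 and 16.05 FPKM, INHA at 5100, 5480, 2915 and 3270 FPKM and AMH at 21.2, 1.55, 6.96 and 0.508 FPKM in F5 proximal, F5 distal, F1 proximal and F1 distal cells. The 5 leukocyte markers found summed to between 0.223 and 1.67 FPKM, with SPI1 at 0 throughout, and the 3 erythrocyte markers found to between 0.0711 and 1.03 FPKM. The 7 markers of theca and stroma found summed to 19.6, 13.4, 13.2 and 8.06 FPKM in that order, with DCN at 0 in 3 libraries.

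Not every name led to a usable row. MVK, IDI1, TM7SF2 and VLDLR stood under no such name. The row named EBP (chromosome 11, 9780741 to 9781007) carries the domain description of a basic-leucine zipper protein, not of the sterol isomerase of that name, and was counted as no member. Its levels were 6.52 FPKM (F5 proximal), 15.97 FPKM (F5 distal), 0.624 FPKM (F1 proximal) and 1.07 FPKM (F1 distal). FDPS, the synthase of farnesyl diphosphate, was listed at 0 in all 4 libraries. Its interval (chromosome 25, 1367692 to 1369964) lies whole inside that of NUP210L on the same strand (1346286 to 1369964), so its 0 is not read as absence of the RNA. Of the other 25 rows, INSIG2 and ABCA1 averaged below 1 FPKM and were not tested, which left 23 members in the fit across 11203 genes. The names of all 23 stand in the RefSeq gene table of assembly GRCg7b on the same chromosome. Chromosome positions are those of the authors' files, which name no genome build.

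The first comparison asked how the cells differ between F5 and F1 follicles. Of the 23 members tested, 18 rose from F5 to F1 and 0 fell, against 10.4% of all 11203 genes that rose and 35.8% that fell (limma, follicle fitted together with position, adjusted p below 0.05, two-sided). Over all genes that is 1168 higher and 4010 lower; median-ratio scaling gave 2175 and 1878 of 11158, and 20 of the 23 members rose under it. With voom weights on the recovered reads limma called 1129 genes higher and 3926 lower, 17 members among the higher. The median difference of log2(FPKM + 1) between F1 and F5 was 1.29 over these members and -0.33 over all genes. Of 13 synthesis genes, 12 were called higher in F1. The exception, FDFT1, was higher in both F1 libraries than in both F5 libraries but did not pass. Their summed share of all reads was 0.183% (exact 95% binomial interval 0.181 to 0.185) in F5 proximal, 0.217% (0.215 to 0.219) in F5 distal, 0.456% (0.453 to 0.459) in F1 proximal and 0.581% (0.577 to 0.585) for F1 distal cells. The share was thus 2.50 times as large in F1 as in F5 proximal cells and 2.68 times as large in distal cells. In such bulk samples, less RNA per cell and fewer cells of a type cannot be told apart.

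**Figure D1:**
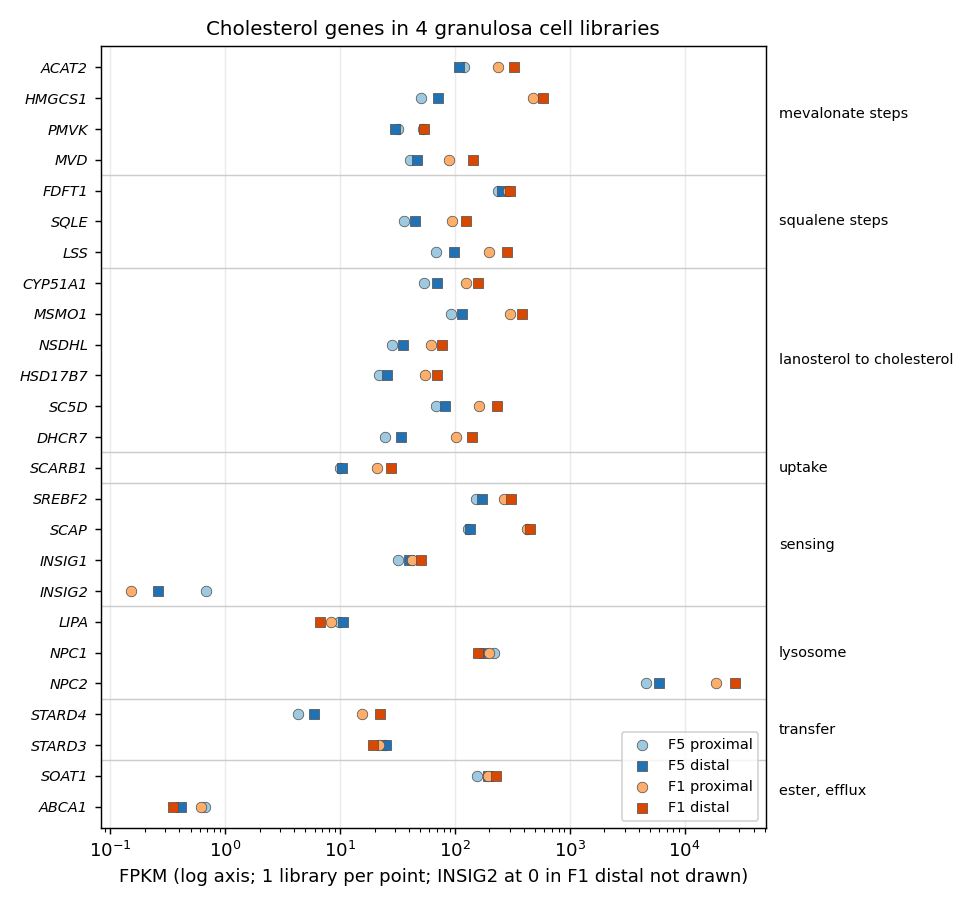
FPKM in the 4 libraries of the 25 members with reads in any of them (log axis, 1 point per library), in pathway order from top to bottom. INSIG2 has no F1 distal point, since it had 0 reads there. Circles are proximal and squares distal cells, blue F5 and orange F1. NPC2 lies highest, between 4631 and 27755 FPKM, and for 20 of the 23 members tested both F1 points lie to the right of both F5 points.

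Among the early, mevalonate steps, HMGCS1 (ENSGALG00000014862, chromosome Z, 13514301 to 13524158), which makes the precursor of mevalonate, changed most. Its levels were 51.2 FPKM (F5 proximal), 71.8 FPKM (F5 distal), 477.9 FPKM (F1 proximal) and 580.5 FPKM (F1 distal). Both F1 libraries were far above both F5 libraries, and the difference of log2(FPKM + 1) in the fit was 3.10 (SE 0.1004, limma adjusted p = 0.00544). ACAT2 (ENSGALG00000011659, chromosome 3, 44881987 to 44889927), the cytosolic thiolase that joins acetyl-CoA units at the start of the route, stood at 119.7, 108.8, 239.6 and 329.9 FPKM in the same order of libraries. Its F1 to F5 ratio of FPKM was 2.002 (95% counting interval 1.91 to 2.09) in proximal and 3.03 (2.90 to 3.17) in distal cells, so its increase was larger away from the disc in these libraries. These intervals come from recovered reads and cover counting error only. MVD, which decarboxylates the mevalonate product to isopentenyl diphosphate, showed a like split, with 40.7, 46.8, 88.5 and 143.6 FPKM in that order. Its ratio was 2.17 (2.02 to 2.34) in proximal and 3.07 (2.87 to 3.28) in distal cells. PMVK, a kinase of the same branch, had levels of 31.9, 29.9, 52.3 and 54.3 FPKM and rose less, by 0.77 on the log2(FPKM + 1) scale (SE 0.102, limma adjusted p = 0.0148).

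Rows that the name search missed were looked at after their values had been seen and are kept out of the counts. A row without a gene name, described as an isopentenyl-diphosphate delta-isomerase of type 1 (ENSGALG00000006723, chromosome 2, 10368356 to 10373419), stood at 102.0, 98.9, 175.4 and 218.1 FPKM in the same order of libraries. This enzyme class turns isopentenyl diphosphate into its isomer, and the row rose by 0.95 in the fit (SE 0.125, limma adjusted p = 0.0147). Of 2 unnamed rows described as mevalonate kinase, the one on chromosome 15 stood at 19.5, 18.5, 31.1 and 30.9 FPKM and rose by 0.68 (SE 0.104, limma adjusted p = 0.0171). The other lies on an unplaced scaffold, stood at 16.5, 14.4, 25.7 and 26.7 FPKM, and rose by 0.73 (SE 0.121, limma adjusted p = 0.0196). If both rows belong to a single gene, their reads would be divided between them.

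At the squalene steps the 3 enzymes differed. FDFT1 (ENSGALG00000016665, chromosome 3, 106985673 to 106996753), which joins farnesyl units into squalene and so commits them to sterol, had the highest F5 level of the synthesis genes, 235.9 FPKM in proximal and 259.7 in distal cells. In F1 it stood at 291.3 and 301.3 FPKM, a difference of 0.26 that did not pass (SE 0.0900, limma adjusted p = 0.0808). SQLE, the epoxidase that follows, stood at 35.8, 45.4, 94.5 and 123.9 FPKM and rose by 1.40 (SE 0.0919, limma adjusted p = 0.00951). LSS (ENSGALG00000006198, chromosome 7, 6911105 to 6920391), which closes the rings to give lanosterol, stood at 68.8, 97.7, 199.5 and 285.0 FPKM. The ratio of LSS was nearly equal at both positions, 2.90 (2.77 to 3.04) in proximal and 2.92 (2.81 to 3.03) in distal cells. An unnamed row on the opposite strand overlaps FDFT1, with 103 to 133 reads per library against 10257 to 13704 for FDFT1, and whether counting used strand is not stated.

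All 6 members counted between lanosterol and cholesterol rose, against 10.4% of all genes. Sterol enzymes outside the member list are taken up below, where LBR fell. DHCR7 (ENSGALG00000004106, chromosome 5, 1673770 to 1680338), a reductase of the last steps, stood at 24.4, 33.9, 101.6 and 142.4 FPKM in the same order of libraries. It rose by 2.03 (SE 0.0920, limma adjusted p = 0.00684), the largest change of this stretch, with ratios of 4.16 (3.89 to 4.46) and 4.20 (3.96 to 4.46). MSMO1, a sterol methyl oxidase, followed with 92.7, 114.3, 303.0 and 381.6 FPKM and a change of 1.71 (SE 0.0873, limma adjusted p = 0.00796). SC5D, a sterol desaturase, stood at 68.2, 82.3, 163.0 and 234.5 FPKM. CYP51A1, the lanosterol demethylase, stood at 53.6, 70.4, 124.7 and 159.0 FPKM. For NSDHL, a dehydrogenase of the demethylation steps, the levels were 28.1, 35.7, 62.2 and 77.4 FPKM, and for HSD17B7, the sterol ketone reductase, 21.8, 25.6, 54.5 and 70.4 FPKM. These last 4 rose by between 1.11 and 1.37 in the fit (limma adjusted p from 0.0105 to 0.0109). In all 6, both F1 libraries lay above both F5 libraries, against 17.4% of all genes.

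**Figure D2:**
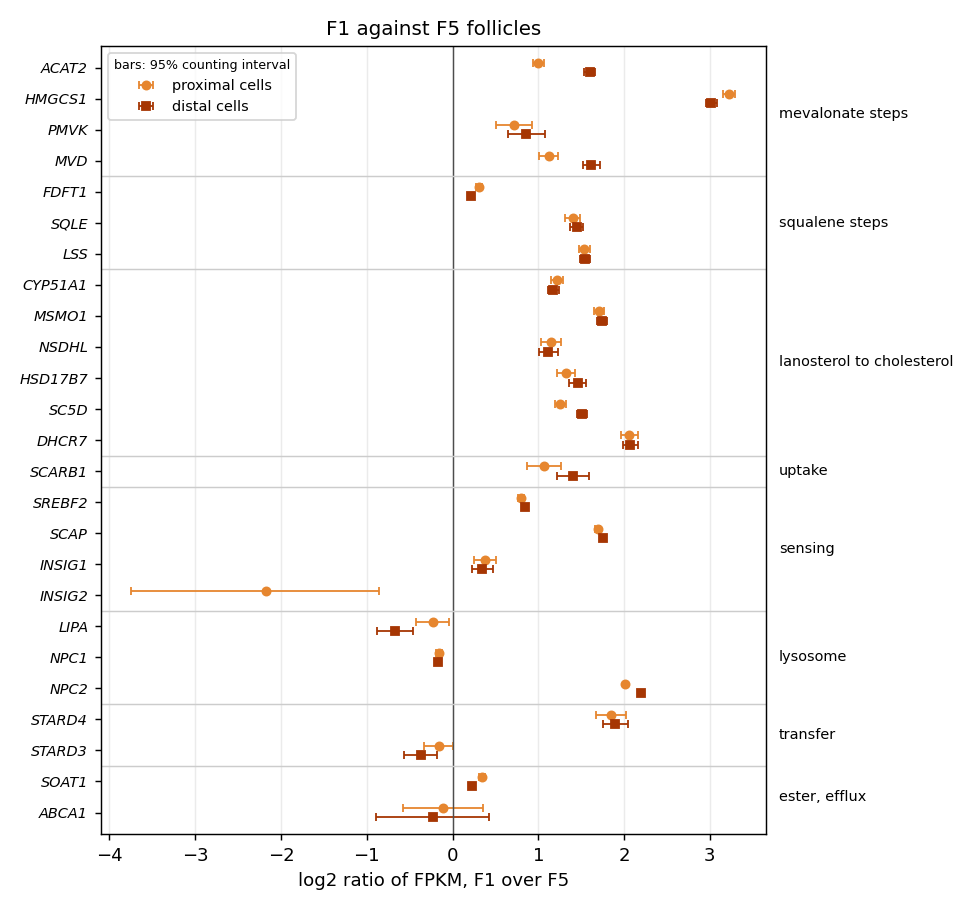
Log2 ratio of FPKM, F1 over F5, for each member with reads, in proximal cells (circles) and distal cells (squares), with 95% exact counting intervals from recovered reads. HMGCS1 lies farthest right, near a ratio of 9.34 in proximal and 8.09 in distal cells, while INSIG2, LIPA, NPC1, STARD3 and ABCA1 lie left of 0. INSIG2 in distal cells, at 0 reads in F1, is not drawn.

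Of the genes that sense sterol, SCAP, the escort protein (ENSGALG00000005072, chromosome 2, 869060 to 919676), stood at 130.2, 135.4, 421.0 and 455.3 FPKM in F5 proximal, F5 distal, F1 proximal and F1 distal cells. It rose by 1.71 (SE 0.0881, limma adjusted p = 0.00796), a larger difference than that of the factor it escorts. SREBF2 (ENSGALG00000011916, chromosome 1, 49351394 to 49367782) stood at 153.8, 173.0, 267.1 and 310.2 FPKM and rose by 0.82 (SE 0.0877, limma adjusted p = 0.0129). INSIG1, which retains SCAP in the endoplasmic reticulum, stood at 32.3, 39.7, 42.0 and 50.5 FPKM, so that F5 distal and F1 proximal cells lay close together. Its change of 0.35 passed narrowly (SE 0.0957, limma adjusted p = 0.0473) and missed the threshold without any single library and in 5 of 9 other settings. INSIG2, its relative with the same role, had 25, 10, 6 and 0 reads, a level of at most 0.684 FPKM. INSIG2 was 4.51-fold lower in F1 than F5 proximal cells (1.81 to 13.4) and in distal cells 2.68-fold lower when the F1 distal library, at 0 reads, is set to the floor of 3. With the counting error of the 10 F5 distal reads included, the exact interval of the distal fold starts at 1.802.

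Receptors that bring in lipoprotein lipid were represented by SCARB1, the receptor for high-density lipoprotein (ENSGALG00000003018, chromosome 15, 4508303 to 4524576). It stood at 9.99, 10.5, 20.9 and 27.7 FPKM and rose by 1.16 (SE 0.138, limma adjusted p = 0.0137). A row named VLDL on chromosome Z (26415507 to 26430542), a name that RefSeq lists as a synonym of VLDLR, the receptor by which the oocyte of the hen takes up yolk lipoproteins, was examined after its values were seen. It stood at 146.3, 138.5, 178.9 and 167.3 FPKM, and its difference of 0.28 did not pass (SE 0.0872, limma adjusted p = 0.0638).

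The lysosomal genes went different ways. NPC2 (ENSGALG00000010237, chromosome 5, 37207826 to 37210000), a soluble protein that binds cholesterol inside lysosomes, stood at 4631 and 6033 FPKM in proximal and distal cells of F5, and at 18730 and 27755 FPKM in those of F1. It rose by 2.11 (SE 0.136, limma adjusted p = 0.00951). In both F1 libraries NPC2 ranked 2 among all genes by FPKM, behind ZP3, and it held 2.30% of the reads in F1 proximal (2.29 to 2.31) and 3.41% in F1 distal libraries (3.40 to 3.42), against 0.568% (0.565 to 0.572) and 0.740% (0.736 to 0.744) in F5. NPC1, the membrane protein to which NPC2 hands its cholesterol, stood at 220.6, 179.4, 198.1 and 159.4 FPKM, with no separation of the follicles, and did not pass (difference -0.16, SE 0.0870, limma adjusted p = 0.189). An antisense neighbour, C18orf8, overlaps the end of NPC1 and had 330 to 513 reads per library. LIPA, the acid lipase that frees cholesterol from its esters, stood at 9.80, 10.7, 8.34 and 6.73 FPKM, lower in both F1 libraries than in both F5 libraries, and did not pass (difference -0.40, SE 0.158, limma adjusted p = 0.103).

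For transfer between membranes, STARD4, a soluble sterol carrier (ENSGALG00000000241, chromosome Z, 46333366 to 46341826), stood at 4.34, 5.97, 15.6 and 22.2 FPKM and rose by 1.69 (SE 0.124, limma adjusted p = 0.0105). STARD3, an anchored carrier of late endosomes, stood at 24.55, 25.01, 21.9 and 19.3 FPKM and did not pass (difference -0.26, SE 0.115, limma adjusted p = 0.137). Thus the low STARD4 came within reach of STARD3 in F1, where F1 distal cells held 22.2 against 19.3 FPKM. SOAT1, the enzyme that stores cholesterol as ester, stood at 154.7, 194.7, 195.9 and 227.5 FPKM, with F5 distal and F1 proximal cells nearly level. Its difference of 0.28 did not pass (SE 0.0917, limma adjusted p = 0.0706). ABCA1, the pump that exports cholesterol, was low throughout, with 80, 51, 80 and 35 reads and at most 0.673 FPKM, and its F1 to F5 ratio was 0.924 (0.669 to 1.28) in proximal and 0.854 (0.539 to 1.34) in distal cells.

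By size, 13 of the 23 members were at least 2-fold higher on the log2(FPKM + 1) scale in F1 than in F5 proximal cells, against 4.46% of all genes, and 15 in distal cells, against 5.36%. None was 2-fold lower at either position, where 9.85% and 17.8% of all genes were. Both F1 libraries lay above both F5 libraries for 20 of 23 members, against 17.4% of all genes, and below them for LIPA and STARD3, against 59.3%. In this fit proximal and distal cells stand in for replicates of a follicle stage, with 1 residual degree of freedom, so differences between birds are not measured. Leaving out 1 library and the position term left 12 members called without F5 proximal, 13 without F5 distal, 17 without F1 proximal and 16 without F1 distal cells. In the same fits 3.61%, 2.88%, 7.69% and 4.83% of all genes rose and 5.06%, 3.06%, 36.7% and 12.9% fell. The calls lost among members were those of INSIG1, PMVK, MVD, SCARB1, SREBF2, NSDHL and CYP51A1.

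The second comparison set cells close to the germinal disc against distal ones. Most members were lower near the disc in both follicles, by modest amounts. Of 23, 18 were lower in proximal than in distal cells in F5 and again in F1, against 12.9% of all genes, and 1, NPC1, was higher in both, against 53.5%. Under median-ratio scaling, which sets the typical gene to no difference, 20 of 23 were lower in both, against 38.1% of all genes. The median difference of log2(FPKM + 1), proximal minus distal, was -0.27 in F5 and -0.33 in F1 over the members, and 0.07 and 0.20 over all genes. None of the 23 differed 2-fold in either follicle; 2.18% of all genes in F5 and 5.18% in F1 were 2-fold higher, and 0.321% and 0.303% were 2-fold lower. No member passed the position test, as 0 of 11203 genes did (0.00% each way), with limma on FPKM or with voom weights on recovered reads. Some other settings called genes for position, with no member among them: 154 higher and 5 lower with a pseudocount of 5, 51 higher with a common total, 14 higher with totals without ZP3 and 61 higher without F5 distal cells. At an unadjusted p below 0.05, 14 members were lower, against 1.90% of all genes, and 1 was higher, against 11.8%.

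**Figure D3:**
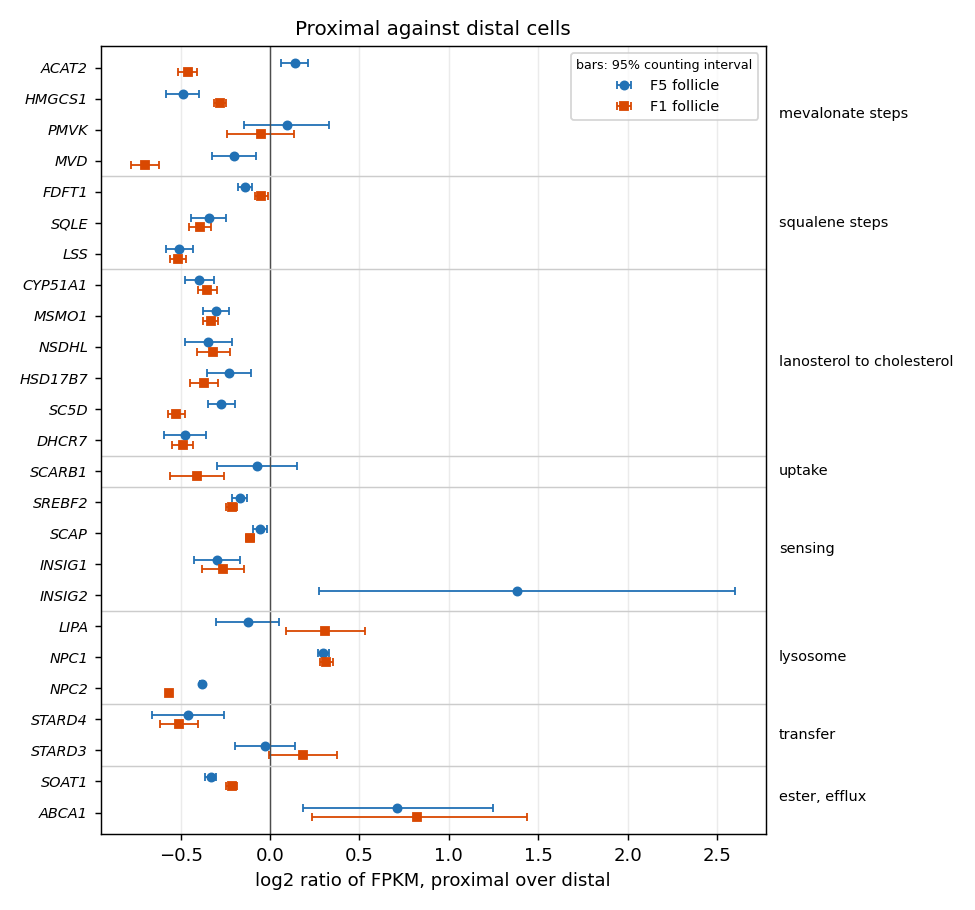
Log2 ratio of FPKM, proximal over distal, for each member with reads, in F5 (circles) and F1 follicles (squares), with 95% exact counting intervals. HMGCS1, the points from MVD down to INSIG1 and those of NPC2, STARD4 and SOAT1 lie left of 0 in both follicles, while NPC1 and ABCA1 lie right of 0 in both. INSIG2 has no F1 point, since it had 0 reads in F1 distal cells.

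Among synthesis genes, LSS had the largest difference in the fit, -0.51 (SE 0.0874, limma adjusted p = 0.213). Its proximal level was 1.42-fold below the distal one in F5 (1.35 to 1.496) and 1.43-fold below it in F1 (1.39 to 1.47). For DHCR7 these folds were 1.39 (1.28 to 1.51) and 1.40 (1.35 to 1.46), so both enzymes kept much the same ratio while their levels rose. Those of HMGCS1 were 1.40 (1.31 to 1.495) in F5 and 1.21 (1.19 to 1.24) in F1, and those of MVD 1.15 (1.06 to 1.25) and 1.62 (1.54 to 1.71). Counting intervals lay below a ratio of 1 in both follicles for 17 of the 23 members, against 4.0% (448) of all genes. Such intervals narrow as reads increase, and all genes were not matched to the members for reads. ACAT2 was the only tested member whose intervals lay on opposite sides of 1, at a proximal to distal ratio of 1.10 in F5 (1.04 to 1.16) and 0.726 in F1 (0.701 to 0.752). With 1 library each, a difference of the position ratio between the follicles was not tested.

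Of the 23 members tested, 5 were not lower near the disc in both follicles. These were the synthesis genes ACAT2 and PMVK and the handling genes LIPA, NPC1 and STARD3. PMVK had a proximal to distal ratio of 1.07 (0.905 to 1.26) in F5 and 0.964 (0.847 to 1.10) in F1, with both intervals spanning 1. NPC2 lay lower in proximal cells, by 1.30-fold (1.29 to 1.31) in F5 and 1.48-fold (1.48 to 1.49) in F1, whereas NPC1 was higher, with ratios of 1.23 (1.202 to 1.26) and 1.24 (1.21 to 1.27). The pair that passes cholesterol out of the lysosome thus lay in opposite directions with position in the deposited FPKM. Neither passed in the fit (limma adjusted p = 0.330 for NPC1 and 0.331 for NPC2). Under median-ratio scaling the proximal minus distal difference of log2(FPKM + 1) of NPC1 shrank to 0.18 in F5 and 0.036 in F1. STARD4 was 1.38-fold (1.196 to 1.58) and 1.42-fold lower (1.32 to 1.53), and SOAT1 1.26-fold (1.23 to 1.29) and 1.16-fold lower (1.14 to 1.19). ABCA1, untested and on few reads, was higher in proximal cells, with ratios of 1.63 (1.14 to 2.37) and 1.77 (1.18 to 2.71). INSIG2, also untested, had 25 proximal against 10 distal reads in F5, a ratio of 2.60 (1.21 to 6.08). In F1 it had 6 against 0 reads, and the exact interval of that ratio starts at 0.911. LIPA had a ratio of 0.916 (0.810 to 1.04) in F5 and 1.24 (1.07 to 1.44) in F1, and STARD3 0.982 (0.874 to 1.10) and 1.14 (0.994 to 1.30). SCAP, among the most increased members in F1, stood nearly level, with ratios of 0.961 (0.937 to 0.986) and 0.925 (0.911 to 0.938). Oocyte markers moved with position. The 5 found summed to 15.1 (F5 proximal), 0.934 (F5 distal), 9.04 (F1 proximal) and 0.144 FPKM (F1 distal), DAZL and NOBOX being at 0 in F1 distal cells. DDX4 was at 0 in every library but F1 proximal, where it stood at 0.0503 FPKM. The part of oocyte markers in these differences was not tested. Endothelial markers summed to 98.5, 61.3, 173.6 and 158.2 FPKM, most of it CLDN5 and EGFL7. EMCN of that list was higher near the disc, at 10.6 against 0.986 FPKM in F5 and 3.67 against 0.116 FPKM in F1. So was CLDN5, at 30.9 against 6.64 FPKM in F5 and 121.5 against 108.8 FPKM in F1. EGFL7 stood nearly level, between 44.5 and 51.2 FPKM, and PECAM1 between 3.38 and 5.31 FPKM. CDH5 and KDR stood at no more than 0.358 FPKM, with CDH5 at 0.358 against 0.0254 FPKM in F5. Their part in the position differences was not tested either.

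The authors' deposited table gives its own log2 ratios of proximal to distal cells. They run parallel to those of the FPKM values, lower by 0.0928 in F5 and by 0.237 in F1 for every member with a ratio, so its scaling differs by a constant in each follicle. In the authors' deposited table ACAT2 stands at 0.0443 in F5 and -0.699 in F1, PMVK at 0.00039 and -0.289, and LIPA at -0.219 and 0.0727. Small ratios near 0 therefore depend on the scaling. A scaling factor shifts the members and all genes alike, so the gap between their medians stays nearly the same by construction. With median-ratio scaling the median of the members stood 1.41 above that of all genes for F1 against F5 in proximal and 1.88 above it in distal cells, against 1.39 and 1.83 as deposited.

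**Figure D4:**
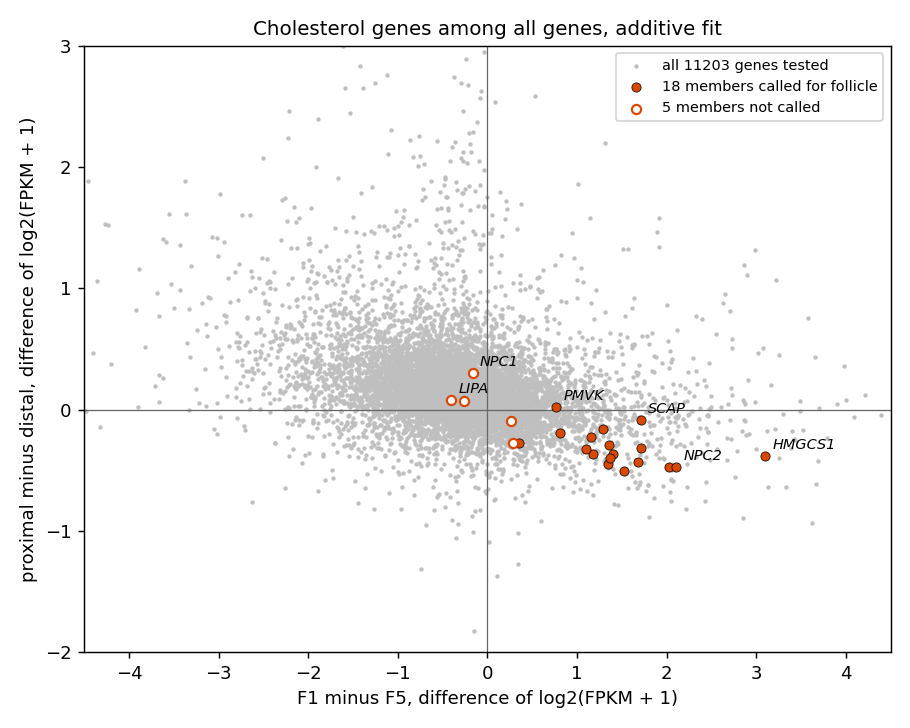
Differences of log2(FPKM + 1) in the additive fit, F1 minus F5 on the horizontal and proximal minus distal on the vertical axis, for 11203 genes (grey) and the 23 members (orange, filled where called for follicle). The 18 called members lie to the right, and 17 of them below 0 on the vertical axis; 24 grey genes lie outside the axes.

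Other genes around the pathway, from lists chosen with earlier results of these data known, were set beside the members. Their counts are to be read against the 10.4% of all genes that rose and the 35.8% that fell, a balance that depends on the scaling (2175 higher and 1878 lower with median-ratio scaling). In steroid synthesis, which uses the cholesterol, 3 of 7 genes tested rose and 3 fell from F5 to F1. STAR, which brings cholesterol into mitochondria, stood at 83.2, 96.2, 464.4 and 717.0 FPKM, and CYP11A1, which cleaves its side chain there, at 132.7, 201.6, 322.4 and 632.9 FPKM. Both were lower near the disc in F5 and in F1, like most members. Their position differences did not pass (limma adjusted p = 0.347 for STAR and 0.198 for CYP11A1). NR5A1, a transcription factor of steroid-making cells, rose by 0.65, while HSD17B1, CYP17A1 and NR0B1 fell by 1.5001, 1.47 and 1.05 (limma adjusted p from 0.0131 to 0.0332 for these 4). CYP17A1 is also a theca cell marker, at 2.59, 2.17, 0.135 and 0.305 FPKM. MYH11 of the theca and stroma list was lower in F1 too, at 4.81, 4.03, 0.763 and 0.690 FPKM. Others of that list changed little between the follicles. COL1A2 stood at 11.7, 6.93, 11.8 and 6.55 FPKM and COL3A1 at 0.411, 0.291, 0.380 and 0.413 FPKM. DCN, PDGFRA and CYP19A1 stood at no more than 0.0643 FPKM. The part of such cells was not tested. NR0B1, a nuclear receptor that represses steroid synthesis, was more than 2-fold higher in proximal cells in both follicles, at 50.3 against 18.4 FPKM in F5 and 25.6 against 7.81 FPKM in F1. HSD17B1 was higher in proximal cells too, at 29.5 against 14.7 FPKM in F5 and 15.7 against 2.58 FPKM in F1. Neither passed for position (limma adjusted p = 0.103 for NR0B1 and 0.268 for HSD17B1).

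Partners of the sterol enzymes went different ways. CYB5A, the cytochrome that feeds electrons to sterol oxidases, rose by 1.64 (SE 0.108, limma adjusted p = 0.00951). Its levels were 47.3, 42.6, 137.2 and 146.4 FPKM. LBR, which has sterol reductase activity, stood at 38.5, 47.2, 28.1 and 22.8 FPKM and fell by 0.73 (SE 0.176, limma adjusted p = 0.0379). Of the 9 genes of the isoprenoid side branches, 1 rose, about the share over all genes, and 5 fell, with a median of -0.59 against -0.33 over all genes. PGGT1B, a subunit of a prenyltransferase, rose by 0.48, and COQ2, FNTA and RABGGTB, which make ubiquinone or prenylate proteins, fell by 1.01, 0.79 and 0.77.

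Of 10 regulators outside the member list 0 rose and 3 fell, RXRA, FBXW7 and MBTPS1, shares near those over all genes. MBTPS1, a protease that activates the factor encoded by SREBF2, stood at 53.7, 46.0, 40.8 and 36.02 FPKM and fell by 0.37 (SE 0.0952, limma adjusted p = 0.0440), but its difference came to 0.016 under median-ratio scaling. Among 24 genes of sterol transport 6 rose and 11 fell. PLTP, a lipid transfer protein, rose from 232.2 and 345.5 to 779.8 and 1235 FPKM in proximal and distal cells. NCEH1, a cholesterol ester hydrolase, rose from 52.8 and 59.2 to 131.7 and 176.6 FPKM. CAV1, which coats caveolae, was at most 0.0997 FPKM in F5 and stood at 6.64 and 6.67 FPKM in F1. STARD3NL, a relative of STARD3, fell from 61.8 and 72.4 to 18.4 and 11.6 FPKM, and OSBPL5 and APOA1 fell by 1.23 and 1.08. Of 12 genes of fatty acid synthesis and activation 6 rose and 3 fell. The desaturases SCD and FADS2 rose by 2.15 and 1.86 and the elongase ELOVL5 by 1.32, while ACSS2, ACSL1 and ELOVL6 fell by 0.69, 0.56 and 0.39 (limma adjusted p from 0.0109 to 0.0460).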

How the data were processed

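HTSeq 0.6.1 and TopHat2 2.0.12 are the tools named in the submitters' processing notes; no build is given there. The deposited FPKM values and the log2 fold changes between positions are the authors' own, per the file headers. Here 2 rows without a gene were left out. FPKM ratios within a gene fitted whole reads for all 16894 genes above 0 (tolerance 1e-08), and gene lengths implied by them were whole numbers for 16891 (tolerance 1e-05). These reads, which without molecular identifiers are not independent molecules, give the 95% exact (Clopper-Pearson) intervals, which cover counting error only. The floor for a count of 0 is 3 reads per library.

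Tests used log2(FPKM + 1), pseudocount 1, for the 11203 genes that averaged 1 FPKM or more. The fits were made with limma 3.58.1 under R 4.3.3 (empirical Bayes, trended prior, Benjamini-Hochberg over all genes, threshold 0.05). Differences on this scale understate changes of low genes. The labels do not show separate birds, and any difference between libraries may be technical. With 1 residual degree of freedom, p-values of the main fit weigh a difference against how far the position difference changed between F5 and F1, moderated across genes. They do not measure the spread between birds or between repeat libraries. Alternatives changed the pseudocount, the filter, the scaling, the model terms and the libraries. Members and lists were chosen with earlier results of these data known. All members found are named; from other lists, up to 3 called genes with the largest rise and 3 with the largest fall, plus those past 2-fold by position in both follicles. A few genes that this rule picks are not reported here. Promoter and protein sequences were not used here.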

Additional observations from a re-analysis of the deposited data

Results flagged for a closer look

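ACAT2 differed between the follicles in the direction of its position ratio. Its proximal cells were higher than distal cells in F5 (119.7 against 108.8 FPKM) and lower in F1 (239.6 against 329.9 FPKM), and the proximal minus distal difference of log2(FPKM + 1) in F1 minus that in F5 was -0.60. With 1 library per group this difference between the follicles was not tested. In the authors' deposited table the F5 log2 ratio of ACAT2 is 0.0443.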

How the results depend on the processing

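Under the other pseudocounts, filters, scalings, voom weights and the fit without position, the number of members that rose from F5 to F1 stayed between 17 and 20 of those tested. No filter added 1 member that fell, INSIG2 (difference -0.44, limma adjusted p = 0.0470), and counting the row named EBP, an alternative chosen after seeing the data, also gave 1 that fell. Leaving out a library in turn gave 12 to 17 calls, and 0 members fell in each. Median-ratio scaling moved the median of the members to 1.68 for F1 against F5 and to -0.48 for proximal against distal. Under the same scaling the direction turned for some that had not passed: NPC1 to 0.23 and STARD3 to 0.12 for F1 against F5, and PMVK to -0.17, LIPA to -0.10, STARD3 to -0.11, VLDL to -0.11 and the unnamed mevalonate kinase row 1 and unnamed mevalonate kinase row 2 to -0.15 and -0.13 for proximal against distal. MBTPS1 turned to 0.016. With totals without ZP3, NPC1 came to 0.015. FDFT1 and SOAT1 passed under these 2 scalings (0.65 and 0.67, then 0.44 and 0.46). No member passed for position in any setting run. Leaving out a library from the position comparison mixes in the follicle difference by construction. Counting limits ABCA1 and INSIG2 most, with at most 80 reads in a library. Of 30 genes taken from the other lists by the naming rule, 19 kept their call for F1 against F5 in every setting with all libraries in which they were tested, and 9 in all 4 fits without a library.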
